A study of Homo sapiens with 12 samples.

Results

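The IGF-binding proteins and the pappalysins that cleave them were followed at the RNA level in FDX2-iKO ES2 cells, an engineered derivative of an established human ovarian cancer line. The 10 genes were IGFBP1, IGFBP2, IGFBP3, IGFBP4, IGFBP5, IGFBP6 and IGFBP7, the proteases PAPPA and PAPPA2, and the protease inhibitor STC2, out of 58735 genes in the count table. They were chosen by gene symbol, with results of these same libraries already known, so the calls given for them describe these libraries and are not independent evidence. Of the 10, 9 had a count in at least 1 library and 7 passed the filter on low counts that selected 16891 genes for testing. IGFBP2, IGFBP5 and IGFBP7 did not pass.

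RNA-seq was performed in 4 conditions with 3 libraries each, 12 in all, and the submitters call the 3 biological replicates. In all 4 conditions the endogenous FDX2 gene had been knocked out by genome editing, and an HA-tagged, editing-resistant FDX2 was expressed from a doxycycline-dependent TetON promoter. The 20% O2 + Doxy cells kept FDX2-HA and the 20% O2 wo Doxy cells lost it, both after 6 days at 20% O2. The 3% O2 + Doxy and 3% O2 wo Doxy cells were grown for 4 days at 20% O2 and then for 3 days at 3% O2. The FDX2-iKO cells were derived from knockout clones, so what belongs to a clone cannot be separated from the genotype. The absence of Doxy and the loss of FDX2 cannot be told apart in this design, and neither can the oxygen level and the extra time in culture.

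Insulin-like growth factors circulate and diffuse bound to IGF-binding proteins, which hold the ligand away from its receptor and set how much of it is free. The pappalysins are secreted metalloproteases that release the ligand by cutting the binding protein, PAPPA mainly at IGFBP4 and IGFBP5 and PAPPA2 mainly at IGFBP3 and IGFBP5. The stanniocalcins STC1 and STC2 bind the pappalysins and inhibit them. Several of these secreted proteins are known as products of senescent cells, and IGFBP1 and IGFBP3 are known to rise in low oxygen.

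Libraries held between 24958386 and 34313637 counts (median 29621780). Levels are given in CPM, counts relative to the TMM-scaled total of the tested genes, with the SD over 3 libraries, and 3 counts, the limit that a count of 0 allows, correspond to 0.0882 to 0.121 CPM. That limit covers counting error only. CA9, a hypoxia-induced gene, had 2 to 9 counts in each library at 20% O2 and 1145 to 2699 at 3% O2. VEGFA, which is also induced by hypoxia, had 32.8 to 38.1 CPM in 20% O2 + Doxy, 87.2 to 91.4 in 20% O2 wo Doxy and 65.6 to 86.0 at 3% O2. FDX2 itself was at 2 to 13 counts in each library and shares 70.9% of its exonic bases with other annotated genes, so the loss could not be checked in these counts. KRT18 (376 to 669 CPM), VIM (2065 to 4176 CPM) and PAX8 (5.59 to 19.3 CPM) were present in every library, whereas KRT19, EPCAM and CDH1 had at most 3 counts in any. Leukocyte markers summed to between 1.99 and 5.0 CPM, with PTPRC at no more than 2 counts. Of the endothelial markers, PECAM1 and VWF had at most 6 counts and CDH5 had 22.1 to 51.4 CPM, the highest values being in the 3% O2 wo Doxy cells. The part of CDH5-expressing cells in the results was not tested. Replicate 1 of the 3% O2 wo Doxy cells stood apart, with a root-mean-square log2 deviation from its condition of 0.593 against 0.168 to 0.368 for the other 11 libraries, and results that use it are also given without it where that changes a call.

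Promoter sequences were available from RefSeq (GRCh38.p14) for 8 of the 10 genes, the exceptions being IGFBP1 and IGFBP7. The 250 bases before the annotated start are shown for the pappalysins, for STC2 and for IGFBP3, because PAPPA2, STC2 and IGFBP3 are the members called for a different FDX2-loss response at 3% and 20% O2, and PAPPA is the close relative of PAPPA2 that did not follow it. The RefSeq starts of STC2 and IGFBP3 lie inside the GENCODE 29 genes whose positions are given further on, so these windows overlap the annotated gene. Letters in capitals are matches to the motifs searched, and each sequence is written 5′ to 3′ on the strand of its gene. The PAPPA2 window is chr1:176462925-176463174 on the plus strand, the PAPPA window chr9:116153541-116153790 on the plus strand, the STC2 window chr5:173328415-173328664 on the minus strand and the IGFBP3 window chr7:45921273-45921522 on the minus strand.
PAPPA2: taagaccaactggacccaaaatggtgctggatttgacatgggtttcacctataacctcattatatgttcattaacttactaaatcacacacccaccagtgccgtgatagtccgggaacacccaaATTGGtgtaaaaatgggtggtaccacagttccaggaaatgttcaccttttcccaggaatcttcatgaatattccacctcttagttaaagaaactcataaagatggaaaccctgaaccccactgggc
PAPPA: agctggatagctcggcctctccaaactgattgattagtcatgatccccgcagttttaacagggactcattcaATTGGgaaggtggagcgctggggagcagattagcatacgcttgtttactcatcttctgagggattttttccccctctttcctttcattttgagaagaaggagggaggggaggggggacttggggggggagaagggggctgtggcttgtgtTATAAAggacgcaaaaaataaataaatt
STC2: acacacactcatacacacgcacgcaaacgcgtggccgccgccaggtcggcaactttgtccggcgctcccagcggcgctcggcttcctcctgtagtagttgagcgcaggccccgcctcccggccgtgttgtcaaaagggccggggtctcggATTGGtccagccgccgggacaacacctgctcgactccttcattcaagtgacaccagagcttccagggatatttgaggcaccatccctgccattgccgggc
IGFBP3: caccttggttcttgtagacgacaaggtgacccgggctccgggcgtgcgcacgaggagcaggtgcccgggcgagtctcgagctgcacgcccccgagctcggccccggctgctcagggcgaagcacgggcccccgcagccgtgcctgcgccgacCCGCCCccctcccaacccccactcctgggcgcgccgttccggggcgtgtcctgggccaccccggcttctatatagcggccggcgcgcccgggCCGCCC

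The windows differed in base composition, with 42.8% G or C in PAPPA2, 48% in PAPPA, 63.6% in STC2 and 76% in IGFBP3. The capitals mark CCAAT on the minus strand (written ATTGG) at position -126 from the start in PAPPA2, -178 in PAPPA and -100 in STC2, TATAAA at -28 in PAPPA, and the GC box GGGCGG on the minus strand (written CCGCCC) at -98 and -6 in IGFBP3. Both strands were searched. Of 35116 RefSeq promoter windows of the same length, 32% held CCAAT, 10.7% TATAAA and 42.6% GGGCGG. The hypoxia response core ACGTG (in 18.5% of all windows), the amino acid response motif TGATGNAA (3.14%) and the AP-1 motif TGANTCA (6.57%) had no match in the windows of these 8 genes. These are matches of letters in a short window, and a missing match says nothing about the factor.

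Among the binding proteins, IGFBP3, the main carrier of IGFs in serum, was called in 4 of the 5 comparisons. IGFBP3 (ENSG00000146674, chr7:45912245-45921874, minus strand, GRCh38) had 5.27, 5.69 and 5.47 CPM in the 20% O2 + Doxy libraries and 3.11, 2.81 and 2.54 CPM in the 20% O2 wo Doxy libraries. At 3% O2 its values were 11.6, 12.3 and 13.7 CPM with Doxy and 10.2, 8.73 and 11.4 CPM without. The 4 conditions did not overlap in any pair, and the order of their means was 20% O2 wo Doxy (2.82 ± 0.289 CPM, SD, n = 3), 20% O2 + Doxy (5.48 ± 0.208), 3% O2 wo Doxy (10.1 ± 1.36) and 3% O2 + Doxy (12.5 ± 1.06). In bulk RNA, fewer cells that express a gene and less of its RNA per cell cannot be told apart.

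IGFBP3 fell upon FDX2 loss at 20% O2, with a log2 fold change of -0.96 (SE 0.12, adjusted p = 0.00013 in edgeR's quasi-likelihood fit, adjusted by Benjamini-Hochberg over all tested genes). At 3% O2 the log2 fold change upon FDX2 loss was -0.31 (95% interval -0.55 to -0.06, adjusted p = 0.129) and did not pass. IGFBP3 rose at 3% O2 in both backgrounds, by 1.19 on the log2 scale with Doxy (SE 0.11, adjusted p = 0.000169) and by 1.84 without (SE 0.12, adjusted p = 5.62e-06). The response to FDX2 loss was 0.65 higher at 3% than at 20% O2 on the log2 scale (SE 0.16, adjusted p = 0.0385), a call that was close to the threshold. It was lost in 10 of the 12 fits that left out 1 library each, including the one without replicate 1 of the 3% O2 wo Doxy cells (0.65, adjusted p = 0.0573), while the estimate stayed between 0.55 and 0.75.

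IGFBP4, a binding protein that inhibits IGF action until PAPPA cuts it, followed the oxygen level alone among the comparisons tested. IGFBP4 (ENSG00000141753, chr17:40443461-40457731, plus strand) had 26.5, 20.0 and 22.1 CPM in 20% O2 + Doxy and 23.5, 23.1 and 23.6 CPM in 20% O2 wo Doxy, which overlapped. The values at 3% O2 were 39.3, 41.2 and 44.0 CPM with Doxy and 39.7, 43.8 and 41.6 CPM without, all above every library at 20% O2. IGFBP4 rose at 3% O2 by 0.86 on the log2 scale with Doxy (SE 0.09, adjusted p = 0.000351) and by 0.83 without (SE 0.09, adjusted p = 0.000129). Upon FDX2 loss its log2 fold change was 0.03 at 20% O2 (95% interval -0.17 to 0.23) and 0.01 at 3% O2 (-0.19 to 0.20).

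IGFBP6, which prefers IGF-II as its ligand, had 33.6, 25.5 and 26.8 CPM in 20% O2 + Doxy and 23.5, 22.7 and 24.1 CPM in 20% O2 wo Doxy. At 3% O2 it had 30.3, 33.3 and 35.0 CPM with Doxy and 32.9, 46.0 and 40.9 CPM without. IGFBP6 (ENSG00000167779, chr12:53097436-53102345, plus strand) was thus lowest in the FDX2-deficient cells at 20% O2 and most variable in the FDX2-deficient cells at 3% O2, where replicate 1 had the lowest value. It rose at 3% O2 without Doxy by 0.77 on the log2 scale (SE 0.13, adjusted p = 0.00163). Its other log2 fold changes did not pass, with -0.29 upon FDX2 loss at 20% O2 (adjusted p = 0.0992), 0.28 upon FDX2 loss at 3% O2 (adjusted p = 0.211) and 0.20 at 3% O2 with Doxy (adjusted p = 0.59). The difference between the FDX2-loss responses was 0.57 (adjusted p = 0.0827), and 0.69 with an adjusted p of 0.0253 when replicate 1 of the 3% O2 wo Doxy cells was left out.

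IGFBP1, a liver-derived and hypoxia-inducible binding protein, was close to the limit of detection. IGFBP1 (ENSG00000146678, chr7:45888357-45893668, plus strand) had 7, 1 and 4 counts in 20% O2 + Doxy, 3, 2 and 0 counts in 20% O2 wo Doxy, 14, 8 and 21 counts in 3% O2 + Doxy, and 8, 5 and 13 counts in 3% O2 wo Doxy. All libraries at 3% O2 exceeded those at 20% O2 with the same Doxy status when scaled to depth. From the summed counts the ratio of 3% to 20% O2 was 3.78 with Doxy (95% interval 1.96 to 7.88) and 5.93 without (2.24 to 19.8), intervals that cover counting error only. The log2 fold change at 3% O2 was 1.88 with Doxy (SE 0.63, adjusted p = 0.194), which did not pass, and 2.46 without (SE 0.74, adjusted p = 0.0325), which did. Such fitted values depend on the prior count where counts are this low. The second call was lost in 4 of the 6 fits that left out 1 library, with adjusted p of 0.0501 without replicate 1 and 0.0939 without replicate 3 of the 3% O2 wo Doxy cells, and 0.0822 without replicate 2 and 0.0937 without replicate 3 of the 20% O2 wo Doxy cells.

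The remaining binding proteins were barely detected. IGFBP2 (ENSG00000115457) had 0 counts in all 12 libraries, which allows at most 0.121 CPM in any of them if its reads were counted. IGFBP5 (ENSG00000115461), a shared substrate of both pappalysins, had 1 count in replicate 2 of the 3% O2 wo Doxy cells and 0 elsewhere. IGFBP7 (ENSG00000163453), a low-affinity relative of the family, had 0, 3 and 5 counts in 20% O2 + Doxy, 10, 6 and 2 in 20% O2 wo Doxy, 0, 4 and 4 in 3% O2 + Doxy, and 42, 2 and 5 in 3% O2 wo Doxy. The 42 counts were in replicate 1, the library that stood apart, and the other 11 libraries had at most 10. Exons of IGFBP7 share 18.9% of their bases with POLR2B and IGFBP7-AS1, and the strand setting of the counting is not given in the sources used here, so the origin of these few counts is uncertain.

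**Figure D1:**
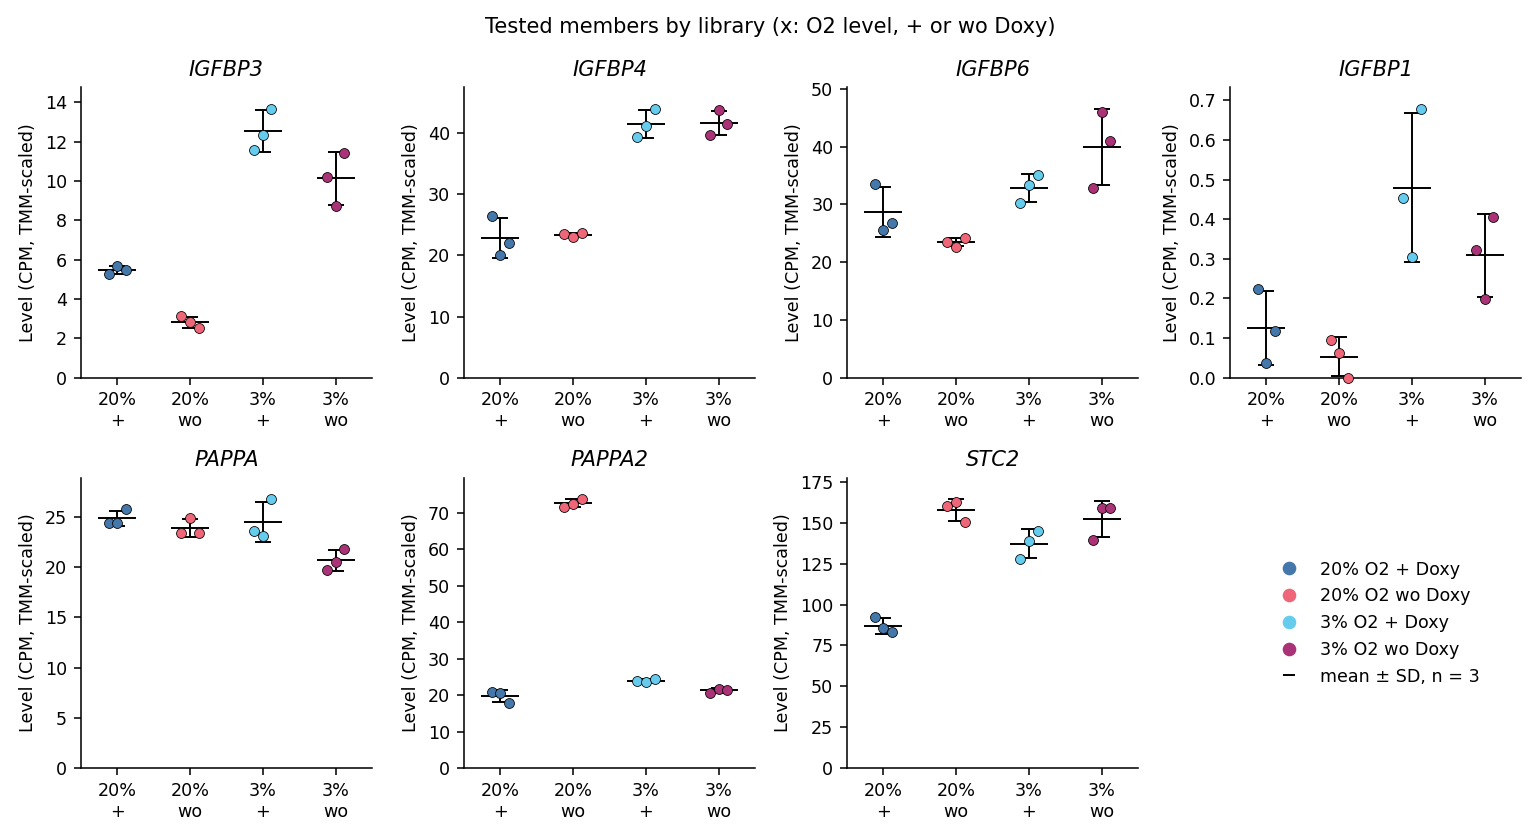
Level in CPM (linear axis from 0) of the 7 tested genes in each of the 12 libraries, as coloured points by condition, with black bars for the mean ± SD of 3 libraries. PAPPA2 stood at 71.6 to 73.7 CPM in the 20% O2 wo Doxy libraries and at 18.0 to 24.6 CPM in the other 9, IGFBP4 stood at 39.3 CPM or more in every library at 3% O2 and at 26.5 CPM or less at 20% O2, and STC2 was lowest in the 20% O2 + Doxy libraries.

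Among the pappalysins, PAPPA2 separated the FDX2-deficient cells at 20% O2 from all others. PAPPA2 (ENSG00000116183, chr1:176463171-176845605, plus strand) had 20.9, 20.7 and 18.0 CPM in 20% O2 + Doxy and 71.6, 72.6 and 73.7 CPM in 20% O2 wo Doxy. At 3% O2 it had 23.9, 23.6 and 24.6 CPM with Doxy and 20.6, 21.9 and 21.6 CPM without. The 3 libraries of 20% O2 wo Doxy lay far above the other 9, and the neighbouring conditions 20% O2 + Doxy (19.9 ± 1.64 CPM) and 3% O2 wo Doxy (21.3 ± 0.675 CPM) overlapped.

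The mean of PAPPA2 was 3.66-fold higher in 20% O2 wo Doxy than in 20% O2 + Doxy, a log2 fold change of 1.87 (SE 0.06, adjusted p = 1.83e-08). Upon FDX2 loss at 3% O2 the log2 fold change was -0.17 (95% interval -0.31 to -0.03, adjusted p = 0.129) and did not pass. The interval is not adjusted for the number of genes tested. The difference between both responses was -2.04 on the log2 scale (SE 0.09, adjusted p = 1.77e-06) and lay between -2.08 and -1.97 in the 12 fits that left out 1 library each. In the FDX2-deficient cells PAPPA2 fell by 1.77 on the log2 scale at 3% against 20% O2 (SE 0.06, adjusted p = 1.05e-07). With Doxy it was 0.27 higher at 3% O2 (SE 0.06, adjusted p = 0.0524), just above the threshold, and it passed with replicate 1 of 20% O2 + Doxy left out (0.30, adjusted p = 0.0367).

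PAPPA differed little between the conditions. PAPPA (ENSG00000182752, chr9:116153804-116402322, plus strand) had 24.4, 24.4 and 25.7 CPM in 20% O2 + Doxy, 23.3, 24.8 and 23.4 CPM in 20% O2 wo Doxy, 23.6, 23.0 and 26.7 CPM in 3% O2 + Doxy, and 19.7, 20.5 and 21.8 CPM in 3% O2 wo Doxy. Only the FDX2-deficient cells at 3% O2 were apart, below every library of the other 3 conditions. In FDX2-deficient cells PAPPA was lower at 3% than at 20% O2, by -0.21 on the log2 scale (SE 0.07, adjusted p = 0.0455). Because deviations of same-numbered libraries correlated in this comparison, a fit with the replicate number as a block was also made. It gave -0.21 with an adjusted p of 0.056 in all 12 libraries and -0.22 with an adjusted p of 0.0411 in the 6 libraries compared, and each of the 6 fits that left out 1 library lost the call as well, with estimates of -0.24 to -0.17 (-0.17, adjusted p = 0.13, without replicate 1 of the 3% O2 wo Doxy cells). Upon FDX2 loss the log2 fold change of PAPPA was -0.06 at 20% O2 (95% interval -0.21 to 0.09) and -0.24 at 3% O2 (SE 0.07, adjusted p = 0.0565). The value at 3% O2 did not pass here but passed under other settings given further on. The antisense gene PAPPA-AS1 shares 21.2% of the exonic bases of PAPPA, and without a stated strand setting the reads of both cannot be told apart.

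STC2, the stanniocalcin that blocks PAPPA by binding it covalently, rose upon FDX2 loss at 20% O2. STC2 (ENSG00000113739, chr5:173314713-173329503, minus strand) had 92.3, 85.6 and 83.0 CPM in 20% O2 + Doxy and 159.9, 162.7 and 150.1 CPM in 20% O2 wo Doxy. At 3% O2 it had 128.0, 138.5 and 145.1 CPM with Doxy and 139.7, 158.8 and 158.6 CPM without. The 20% O2 + Doxy libraries were lowest, whereas 3% O2 + Doxy overlapped with 3% O2 wo Doxy, and 3% O2 wo Doxy with 20% O2 wo Doxy.

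The log2 fold change of STC2 was 0.86 upon FDX2 loss at 20% O2 (SE 0.07, adjusted p = 6.63e-06) and 0.15 at 3% O2 (95% interval -0.0036 to 0.31, adjusted p = 0.226). The difference between these responses was -0.71 (SE 0.10, adjusted p = 0.00257), with -0.75 to -0.65 when any 1 library was left out. STC2 rose by 0.66 on the log2 scale at 3% O2 with Doxy (SE 0.07, adjusted p = 0.000429). In FDX2-deficient cells the change with oxygen was -0.05 (95% interval -0.20 to 0.11).

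STC1, the related stanniocalcin and also a pappalysin inhibitor, was not one of the 10 genes. Like STC2 it was lowest in 20% O2 + Doxy, but its highest levels were in 3% O2 wo Doxy. It had 36.2, 38.0 and 39.9 CPM in 20% O2 + Doxy, 99.0, 99.5 and 99.1 CPM in 20% O2 wo Doxy, 104.0, 111.7 and 112.4 CPM in 3% O2 + Doxy, and 118.0, 116.6 and 118.6 CPM in 3% O2 wo Doxy. The log2 fold change upon FDX2 loss was 1.38 at 20% O2 (SE 0.05, adjusted p = 3.85e-08) and 0.11 at 3% O2 (SE 0.05, adjusted p = 0.229), with a difference of -1.28 (SE 0.07, adjusted p = 7.08e-06). STC1 rose at 3% O2 by 1.52 with Doxy (adjusted p = 1.25e-07) and by 0.25 without (adjusted p = 0.0051).

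**Figure D2:**
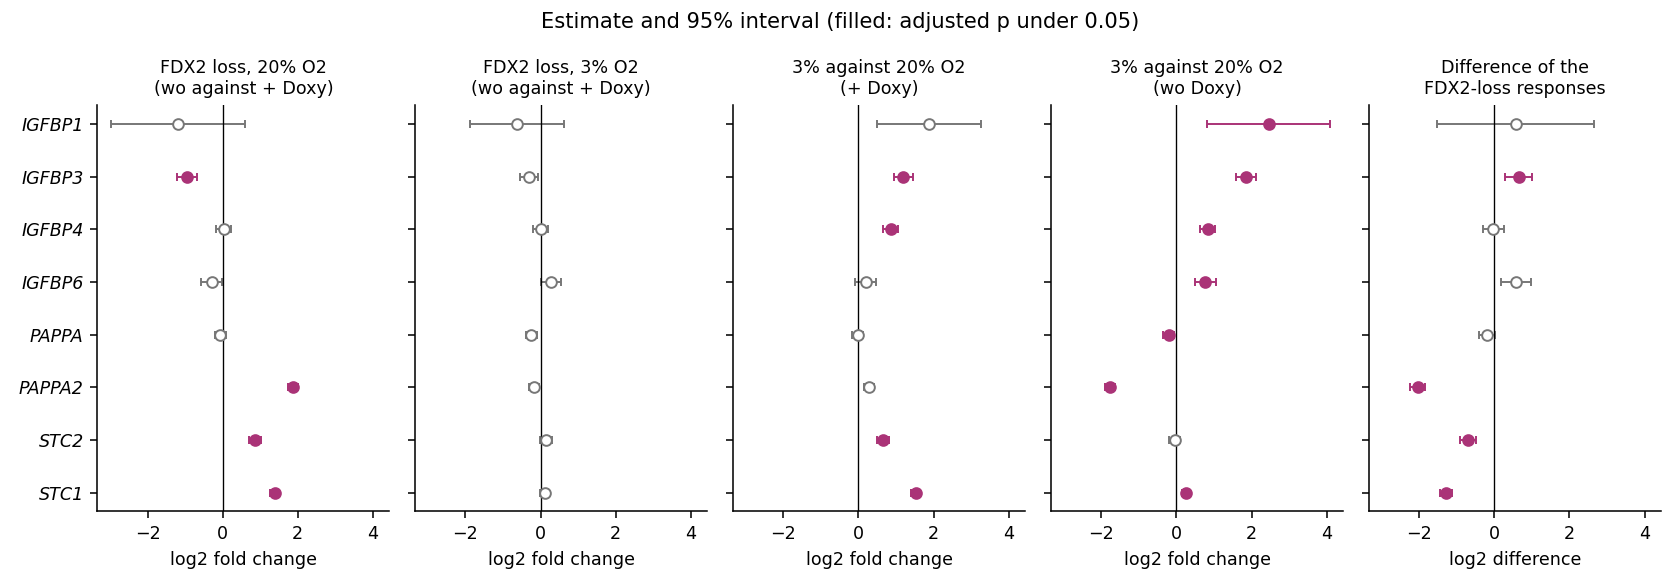
Log2 fold change (horizontal axis) with its 95% interval for the 7 tested genes and STC1, in 1 panel per comparison and, in the last panel, the difference of the FDX2-loss responses (3% minus 20% O2). Filled points passed an adjusted p of 0.05. PAPPA2 is at 1.87 in the first panel, -0.17 in the second and -2.04 in the last, and IGFBP4 is filled in both oxygen panels alone.

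By comparison, FDX2 loss at 20% O2 called 3 of the 7 tested genes, PAPPA2 and STC2 higher and IGFBP3 lower, where 35.3% of the 16891 tested genes were called (17.6% higher, 17.7% lower). FDX2 loss at 3% O2 called 0 of 7 in the main fit with edgeR's quasi-likelihood test, where 7.31% of all tested genes were called (4.2% higher, 3.11% lower). At an unadjusted p under 0.05 the number was 4 of 7, beside 3901 of the 16891 tested genes. DESeq2's Wald test called 1, PAPPA, which was lower (-0.27, adjusted p = 0.0129), beside 1942 of 14510 genes. The edgeR test with DESeq2 size factors or with a stricter filter also called PAPPA. At 3% against 20% O2 with Doxy, 3 of 7 were called, IGFBP3, IGFBP4 and STC2, all higher, where 2.02% of all tested genes were called (1.63% higher, 0.385% lower). At 3% against 20% O2 without Doxy, 6 of 7 were called, with IGFBP1, IGFBP3, IGFBP4 and IGFBP6 higher and PAPPA and PAPPA2 lower, where 25.8% of all tested genes were called (13.9% higher, 11.9% lower). The number was 4 or 5 in the 6 fits without 1 library and 5 with the replicate block. The difference of the FDX2-loss responses called 3 of 7, IGFBP3 higher and PAPPA2 and STC2 lower, where 7.29% of all tested genes were called (3.21% higher, 4.08% lower). The comparisons share conditions, so their calls are not separate observations.

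The medians over the 7 tested genes lay on both sides of 0, with -0.06 upon FDX2 loss at 20% O2 (0.01 over all tested genes), -0.17 upon FDX2 loss at 3% O2 (0.04), 0.66 at 3% O2 with Doxy (0.00), 0.77 at 3% O2 without Doxy (0.07) and -0.03 for the difference (0.05). In the FDX2-deficient cells the 4 tested binding proteins were higher at 3% O2 and the 2 pappalysins lower. The calls of IGFBP1 and PAPPA were not stable, being lost in 4 and 6 of the 6 fits that left out 1 library. At 3% against 20% O2 without Doxy the log2 fold changes of the 4 tested binding proteins ran from 0.77 to 2.46, those of the 2 pappalysins were -1.77 and -0.21, and that of STC2 was -0.05.

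Levels of different genes were compared in TPM, computed from the counts divided by the length of the union of exons and scaled to the same total in each library. IGFBP6 and IGFBP4 made up most of the counted binding-protein RNA in every condition, with IGFBP2 entered at its listed 0. The share of IGFBP6 in the summed TPM of the 7 binding proteins was 64.5 ± 0.77% in 20% O2 + Doxy, 60.4 ± 0.699% in 20% O2 wo Doxy, 52.7 ± 0.616% in 3% O2 + Doxy and 57.5 ± 3.82% in 3% O2 wo Doxy. The share of IGFBP4 was 31.5 ± 0.543%, 37.0 ± 0.307%, 40.7 ± 0.609% and 37.0 ± 2.11% in the same order, and that of IGFBP3 was 3.69 ± 0.622%, 2.14 ± 0.228%, 5.91 ± 0.122% and 4.36 ± 0.834%. With the length of the longest transcript the IGFBP3 shares were 6.21%, 3.67%, 9.92% and 7.35%. The summed TPM of the binding proteins was 122.0 ± 16.0 and 112.8 ± 3.51 at 20% O2 with and without Doxy, and 172.1 ± 9.15 and 189.4 ± 25.3 at 3% O2. Thus the sums at both oxygen levels stood apart by more than their SD, whereas the sums with and without Doxy at the same oxygen level did not.

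Between the pappalysins, PAPPA was at 7.94 ± 0.251 TPM and PAPPA2 at 6.73 ± 0.566 TPM in 20% O2 + Doxy. In 20% O2 wo Doxy PAPPA was at 8.07 ± 0.219 TPM and PAPPA2 at 26.05 ± 0.577 TPM, so PAPPA2 made up 76.3 ± 0.706% of their sum, against 45.8 ± 2.85% in 20% O2 + Doxy, 51.0 ± 1.47% in 3% O2 + Doxy and 52.2 ± 0.966% in 3% O2 wo Doxy. STC2 was at 52.5 ± 2.57, 100.7 ± 3.24, 83.1 ± 3.94 and 91.7 ± 9.65 TPM in the order of 20% O2 + Doxy, 20% O2 wo Doxy, 3% O2 + Doxy and 3% O2 wo Doxy. It was thus above either protease in every condition.

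**Figure D3:**
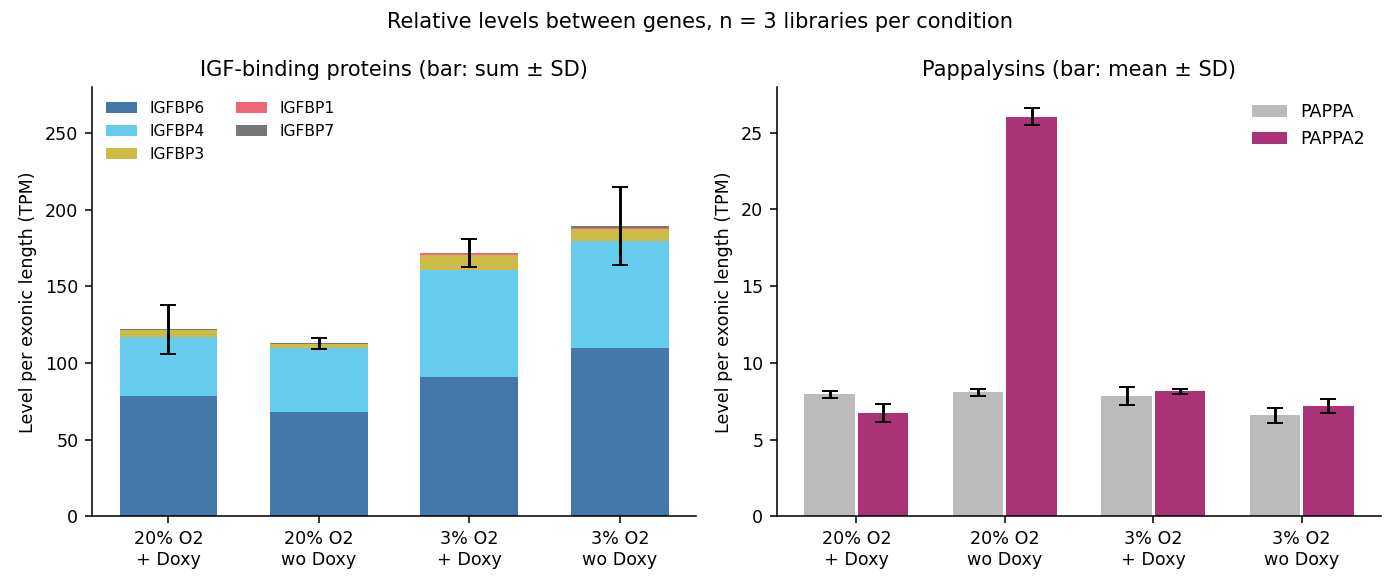
Mean TPM (linear axis from 0) per condition, n = 3 libraries. Left, stacked levels of the detected binding proteins with the SD of their sum, which was 112.8 to 122.0 at 20% O2 and 172.1 to 189.4 at 3% O2. Right, PAPPA and PAPPA2 with their SD, where PAPPA2 reached 26.05 TPM in 20% O2 wo Doxy and 6.73 to 8.15 TPM elsewhere.

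Of 32 other genes of the IGF axis, 23 were tested. Of the ligands, IGF1 had 2 counts in 1 library and 0 in the other 11, and IGF2 was listed at 0 in all 12. Other annotated genes share 82.4% of the exonic bases of IGF1 and 75% of those of IGF2, so these counts do not show that the ligands were absent. The receptor IGF1R, which carries the growth signal, had 42.4 to 58.4 CPM, and IGF2R, which clears IGF-II, had 194 to 239 CPM. Neither passed in any comparison, with log2 fold changes of -0.03 to 0.14 for IGF1R and -0.01 to 0.15 for IGF2R, and differences of the FDX2-loss responses of -0.07 and -0.12. INSR was listed at 0 in all 12 libraries although no other annotated gene shares its exons, so how the table was counted there is unclear, and the same doubt holds for other genes listed at exactly 0. INSRR had 2 counts in total.

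FDX2 loss at 20% O2 called 11 of these 23 genes, 9 higher and 2 lower, beside 17.6% higher and 17.7% lower of all tested genes. Their median log2 fold change was 0.25, against 0.01 over all tested genes. No test of the group was made. The largest called changes were MMP3 (2.46, SE 0.06) and MMP1 (1.07, SE 0.06), matrix metalloproteases reported to cut binding proteins, the stanniocalcin STC1 given above, and CCN3 (0.87, SE 0.09), a matricellular relative with an IGFBP-like domain. FDX2 loss at 3% O2 called 7 of 23, all 7 higher, beside 4.2% higher and 3.11% lower of all tested genes, with a median of 0.20 against 0.04. The largest were MMP3 (1.58, SE 0.06), MMP1 (0.66, SE 0.06), the plasminogen activator PLAT (0.50, SE 0.09) and CCN4 (0.48, SE 0.08). At 3% against 20% O2 with Doxy 5 of 23 were called, 3 higher and 2 lower (median -0.02), beside 2.02% of all tested genes. Without Doxy 6 of 23 were called, 4 higher and 2 lower (median 0.07), close to the 25.8% of all tested genes. In the former the largest were STC1, CCN3 (0.51, SE 0.09), the plasminogen activator PLAU (0.42, SE 0.07) and MMP3 (-0.40, SE 0.05), and in the latter MMP3 (-1.27, SE 0.05), MMP1 (-0.65, SE 0.06), CCN2 (0.50, SE 0.06) and PLAU (0.33, SE 0.07). The difference of the FDX2-loss responses called 5 of 23, CCN2 and CCN4 higher and STC1, MMP1 and MMP3 lower (median -0.09), beside 7.29% of all tested genes.

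The profile over all 12 libraries was also compared with that of every gene with a symbol and a mean of at least 5 CPM, 10609 genes, by the root-mean-square distance of log2 CPM centred on each gene's mean. These distances describe likeness in these libraries, whose conditions all the genes share. The genes nearest to PAPPA2 were CTH (distance 0.17), which makes cysteine in the transsulfuration pathway, CHAC1 (0.21), which degrades glutathione, and the cytokine IL11 (0.25), where PAPPA2 itself varied by 0.76. Nearest to IGFBP3 were the glucose transporter SLC2A1 (0.22), the fucosyltransferase FUT11 (0.26) and the glycolytic enzyme PGK1 (0.27), where IGFBP3 varied by 0.84. Nearest to STC2 were the Notch ligand JAG1 (0.09), the glucose transporter SLC2A3 (0.09) and the AMP deaminase AMPD3 (0.10), where STC2 varied by 0.35.

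Nearest to IGFBP4 were the prolyl hydroxylase EGLN1 (0.12), the cytidine deaminase CDA (0.13) and the semaphorin coreceptor PLXNA4 (0.13), where IGFBP4 varied by 0.44. IGFBP1, with its few counts, was nearest to IGFBP3 (0.46), SLC2A1 (0.49) and the mitophagy receptor BNIP3 (0.51), where it varied by 1.00. IGFBP6 varied by 0.31 and was nearest to MHENCR (0.10), the melanocortin receptor MC1R (0.11) and NIBAN2 (0.11). PAPPA varied by 0.12, and the genes near it included the decapping protein DCP1A (0.06) and the DNA repair protein PALB2 (0.06), so the likeness there rests on small differences.

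**Figure D4:**
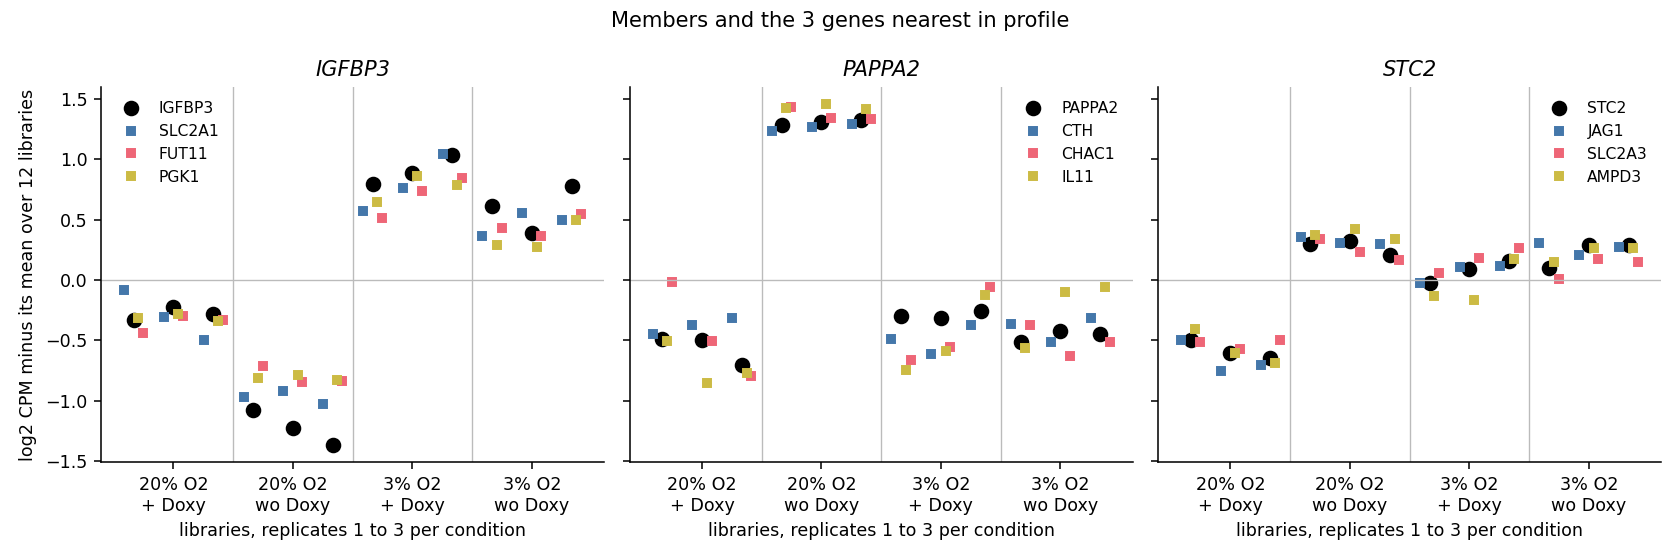
Log2 CPM minus its mean over 12 libraries (vertical axis) for IGFBP3, PAPPA2 and STC2 (black circles) and the 3 genes nearest to each (coloured squares), with 3 libraries per condition along the horizontal axis. The nearest genes lay within a root-mean-square distance of 0.22 to 0.27 for IGFBP3, 0.17 to 0.25 for PAPPA2 and 0.09 to 0.10 for STC2.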

How the data were processed

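FDX2-iKO ES2 cells were analysed in 4 conditions of 3 libraries. Per the labels and the study's methods, the authors prepared poly(A) libraries, read them in pairs on a DNBSEQ-T7 sequencer and used STAR (GRCh38) and featureCounts to align and count. What they deposited are raw counts per gene, without normalization. The versions of STAR and featureCounts, their annotation and strand setting, and how multi-mapping reads were handled are not given in the sources used here. The study normalised with DESeq2 for its own analyses. For replicates 1 and 2 of 20% O2 + Doxy 1 raw read file was lost, and their counts were used as deposited. All 58735 gene identifiers matched GENCODE 29 (58207 with a symbol), which gave positions and lengths.

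The members and gene lists were chosen with earlier results of these data known. The rule for named genes was all 10 members, the IGF axis ligands, receptors and STC1, up to 4 called axis genes per comparison with the largest log2 fold change, the 3 genes nearest in profile to each tested member, and FDX2, CA9 and VEGFA as checks. A marker gene and a gene near PAPPA in profile are not reported here. The fifth axis gene called for the difference of the responses, MMP1, was also named. The counts were fitted in edgeR 4.0.16 under R 4.3.3 (filterByExpr, minimum count 10 and minimum total count 15, TMM, quasi-likelihood model with 4 condition means, 8 residual degrees of freedom), and p-values were adjusted over 16891 genes by Benjamini-Hochberg. A gene was called at an adjusted p under 0.05. Standard errors were derived from the log2 fold change and the F statistic of the same model, and 95% intervals from these standard errors. Alternatives were the Wald test of DESeq2 1.42.0, and edgeR fits with DESeq2 size factors, other filters, 6 libraries, a replicate block or 1 library left out. Log2 CPM for profiles used a prior count of 2. The fitting step was tested on simulated data.

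Libraries held 24958386 to 34313637 counts, and counting error limits genes with few counts. Replicates differed by more than sampling noise, so no library was counted as a duplicate. Deviations of same-numbered libraries from their condition correlated at 0.19 to 0.497 in all 3 pairs between cells without Doxy at 20% and 3% O2. Other pairings gave -0.473 to 0.231. These libraries were treated as possibly paired, the limit being a correlation over 0.1, and the replicate block was fitted as an alternative. No pairing is stated in the labels or the study's methods. In another pair of conditions, 3% O2 with and without Doxy, differently numbered libraries reached 0.663, so such correlations do not establish a pairing. The main values printed for that comparison come from the fit without the block. The other pairs of conditions did not meet that limit of 0.1 in all 3.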

Additional observations from a re-analysis of the deposited data

Results flagged for a closer look

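The response to FDX2 loss differed between 3% and 20% O2, by the interaction term of the edgeR fit with an adjusted p under 0.05, for 3 of 7 tested members and 5 of 23 other tested genes of the IGF axis, beside 7.29% of all tested genes. Among the members the difference (3% minus 20% O2, log2) was -2.04 for PAPPA2, -0.71 for STC2 and 0.65 for IGFBP3. PAPPA2 and STC2 were higher without Doxy at 20% O2 in 3 of 3 libraries than in any library with Doxy. At 3% O2 STC2 overlapped between the conditions. PAPPA2 was lower there without Doxy, with no overlap, but did not pass (-0.17, adjusted p = 0.129 in edgeR's fit). IGFBP3 was lower without Doxy at both oxygen levels, with no overlap between the conditions. At 3% O2 the gap was narrow, 11.4 against 11.6 CPM, and the change did not pass (adjusted p = 0.129 in edgeR's fit). Overlap was looked at for the listed genes only, so no share over all tested genes stands beside it.

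Among the other genes the difference was -1.28 for STC1, -0.88 for MMP3, -0.42 for MMP1, 0.54 for CCN2 and 0.68 for CCN4. All 5 were chosen by name, and no explanation was tested.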

How the results depend on the processing

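The calls of PAPPA2 and STC2 for FDX2 loss at 20% O2 and for the difference of the responses were made in every alternative run, and so was that of IGFBP3 for FDX2 loss at 20% O2. For FDX2 loss at 3% O2 the main edgeR fit called 0. DESeq2's Wald test, edgeR with DESeq2 size factors and edgeR with a strict filter (10 counts or more in each library) each called 1, PAPPA (-0.27, -0.27 and -0.25). Over all genes they called 1942 of 14510, 1348 of 16891 and 1267 of 14312. At 3% against 20% O2 with Doxy, the replicate block in a fit to the 6 libraries compared called 0 instead of 3. Same-numbered libraries did not meet the limit for pairing there. That fit called 12 of 15937 genes in all, against 341 of 16891, and gave log2 fold changes of 1.19 for IGFBP3 (adjusted p = 0.0893), 0.86 for IGFBP4 (0.281) and 0.65 for STC2 (0.324). In all 12 libraries the replicate block took away the calls of IGFBP3 for the difference (0.65, adjusted p = 0.0825) and of PAPPA at 3% O2 without Doxy, and it changed no other call. Counts of called members over the fits without 1 library were 3 for FDX2 loss at 20% O2, 0 at 3% O2, 3 to 4 and 4 to 5 for oxygen with and without Doxy, and 2 to 3 for the difference.

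Of 468 alternative estimates for single members, 413 kept their direction and call, 27 lost the call, 8 gained it and 20 changed sign, all 20 among estimates that did not pass. For IGFBP4 upon FDX2 loss these were -0.0020 at 20% O2 without a filter and, at 3% O2, -0.0197 with DESeq2's Wald test, -0.0197 with its size factors, -0.0057 with the strict filter, -0.0195 in the 6-library fit, -0.0271 without a filter and -0.0201 with the block in 6 libraries. Leaving out 1 library gave IGFBP4 -0.0554 to 0.14 upon FDX2 loss at 20% O2, -0.0336 to 0.0492 at 3% O2 and -0.15 to 0.0602 for the difference. It gave PAPPA -0.0918 to 0.0155 at 3% O2 with Doxy, STC2 -0.0919 to 0.0108 at 3% O2 without Doxy, and IGFBP1 -0.0781 to 1.23 for the difference. IGFBP1 passed neither the strict filter nor the filter of both 6-library fits at 3% against 20% O2 without Doxy, and DESeq2 gave it no adjusted p there, so it is not counted for that test.

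With the length of the longest transcript in place of the union of exons, the share of PAPPA2 in the summed pappalysin TPM was 77.5% in 20% O2 wo Doxy and 47.5 to 53.9% elsewhere. Depth limits what can be said of IGFBP2, IGFBP5 and IGFBP7, which had 10 counts or fewer in each library except for IGFBP7 in replicate 1 of 3% O2 wo Doxy.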
